A study of Mus musculus with 24 samples.

Results

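The secreted Wnt antagonists are extracellular proteins, most of which bind either Wnt ligands or the coreceptors Lrp5 and Lrp6. All 10 genes named for the set (Sfrp1, Sfrp2, Sfrp4, Sfrp5, Frzb, Wif1, Dkk1, Dkk2, Dkk3 and Sost) were found by symbol among the 22053 gene entries of the protein-coding table, each once. In GRCm38 the file places Wif1 at chr10:121033960-121100650, Sfrp1 at chr8:23411502-23449632, Sfrp2 at chr3:83766321-83774316, Sfrp4 at chr13:19623175-19632821, Sfrp5 at chr19:42197971-42202252 and Frzb at chr2:80411970-80447625. It places Dkk1 at chr19:30545863-30549665, Dkk2 at chr3:132085292-132180304, Dkk3 at chr7:112116017-112159057 and Sost at chr11:101962458-101967015. RNA had been sequenced from cells of male mice on postnatal day 10, sorted as CD31-, Ter119-, CD45-, Thy1-, 6C3-, CD105- and CD200+, with 4 libraries in each of 6 groups. EMB is the surface protein embigin. Vertebral cells were split by GFP and EMB into GFP+ EMB+, GFP+ EMB-, GFP- EMB+ and GFP- EMB- fractions, and cells of femur and tibia, called long bone here, into EMB+ and EMB-. GFP marks cells in which Cre driven by Zic1, a transcription factor gene of the dorsal trunk, has been active, and the long bone cells were all GFP-. The genotype label is WT for every library, also where Cre and GFP are used in the sort, and no strain is given. The titles call the libraries biological replicates, and nothing says whether they came from single or pooled animals.

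Sort genes and marker genes were read first. Emb stood at 30.1 to 56.5 FPKM in the 12 EMB+ libraries and at 0.238 to 1.32 FPKM in the 12 EMB- libraries, and each of the 8 long bone libraries gave 0 for Zic1. The titles of the 4 vertebral GFP- EMB+ libraries read Emb-GFP+, against their cell type labels; the grouping follows the cell type, and Emb stood at 44.4 to 55.3 FPKM and Zic1 at 0 to 0.108 FPKM in them. In long bone EMB- cells, libraries correlated less with each other (lowest Pearson r over genes 0.925) than in the other groups (0.978 or more). Chondrocyte markers (Col2a1, Acan and 5 others) summed to 27599 to 59680 FPKM in all libraries. Summed FPKM over all genes ranged from 382376 to 568530 per library, and the read depth is unknown, since the file gives no counts.

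Wnt proteins bind Frizzled receptors together with the coreceptors Lrp5 and Lrp6 and, in the canonical pathway, stabilise beta-catenin. The Sfrp proteins and Frzb carry a Frizzled-like domain and bind Wnt ligands, as Wif1 does through a domain of its own. Dkk1, Dkk2 and sclerostin, the product of Sost, bind Lrp5 and Lrp6 instead, and sclerostin is best known as a product of osteocytes that restrains bone formation. Dkk3 is a distant relative of the other Dkk proteins whose place in the pathway is less clear. In growing skeletons the pathway is known to act on both cartilage maturation and osteoblast formation, so its secreted inhibitors are of interest in skeletal progenitors.

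Start-site regions (250 bases before to 50 after the start) from RefSeq, build GRCm38.p6, were at hand for 7 of the 10 genes: Wif1, Sfrp5, Sfrp2, Frzb, Dkk1, Dkk2 and Sost. The regions of Wif1, which has a level pattern of its own, and of Sfrp5, Sfrp2 and Dkk1, which were all lower in EMB+ than in EMB- long bone cells, are printed 5′ to 3′ on the strand of the gene. Capitals mark matches to the searched motifs, and the lines give Wif1 (chr10:121033754-121034053, plus strand), Sfrp5 (chr19:42202203-42202502, minus strand), Sfrp2 (chr3:83766071-83766370, plus strand) and Dkk1 (chr19:30549447-30549746, minus strand).
Wif1: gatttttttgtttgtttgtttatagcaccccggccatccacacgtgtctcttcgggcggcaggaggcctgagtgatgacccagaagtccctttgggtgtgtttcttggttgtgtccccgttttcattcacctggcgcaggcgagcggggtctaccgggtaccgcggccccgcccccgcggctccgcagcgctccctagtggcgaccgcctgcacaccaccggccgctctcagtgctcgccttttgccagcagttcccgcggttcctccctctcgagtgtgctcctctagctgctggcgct
Sfrp5: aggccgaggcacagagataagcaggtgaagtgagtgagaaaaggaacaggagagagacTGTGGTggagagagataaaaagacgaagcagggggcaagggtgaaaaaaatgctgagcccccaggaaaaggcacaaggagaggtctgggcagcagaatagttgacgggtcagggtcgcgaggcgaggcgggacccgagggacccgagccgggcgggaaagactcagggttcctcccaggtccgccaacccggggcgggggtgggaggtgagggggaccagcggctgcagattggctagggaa
Sfrp2: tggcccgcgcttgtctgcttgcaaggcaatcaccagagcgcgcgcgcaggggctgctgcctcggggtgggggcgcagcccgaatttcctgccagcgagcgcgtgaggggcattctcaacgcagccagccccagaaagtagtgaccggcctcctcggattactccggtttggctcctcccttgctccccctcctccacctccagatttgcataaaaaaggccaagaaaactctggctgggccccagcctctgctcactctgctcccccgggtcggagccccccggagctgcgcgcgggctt
Dkk1: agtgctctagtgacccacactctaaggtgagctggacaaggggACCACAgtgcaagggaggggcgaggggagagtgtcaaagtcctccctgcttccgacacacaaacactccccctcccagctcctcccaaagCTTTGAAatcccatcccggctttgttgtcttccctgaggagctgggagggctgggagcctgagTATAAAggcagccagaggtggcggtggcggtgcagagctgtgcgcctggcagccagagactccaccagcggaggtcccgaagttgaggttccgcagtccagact
The TCF/LEF motif was searched as CTTTGAT and, in a second form that occurs in known target genes, as CTTTGAA. The RUNX motif was searched as TGTGGT and that of SOX factors as AACAAT, these and the TCF/LEF motif on both strands. The TATA box was searched as TATAAA on the strand of the gene only, and no matches overlapped. Over 32851 mouse start-site regions of the same length, 8.65% held the TCF/LEF motif, 16.8% the RUNX, 10.7% the SOX and 8.32% the TATA motif. Dkk1 held a TCF/LEF match 117 bases before its start, a RUNX match on the other strand 207 bases before it and TATAAA 54 bases before it. These distances are from the RefSeq start. The file places the start of Dkk1 farther upstream, at base 30549665 in place of 30549496, so its matches at 117 and 54 bases lie inside the gene as the file places it; the starts of Wif1 and Frzb differ likewise, by 44 and 229 bases. Sfrp5 held a RUNX match at -192 from its start, and Dkk2 held TATAAA 32 bases before its own. No match was found in the windows of Wif1, Sfrp2, Frzb and Sost, which says only that these letters are not in these 300 bases. The printed window of Wif1 held 25 CpG and that of Sfrp2 22, against 15 in Sfrp5 and 9 in Dkk1, with a median of 7 over all regions.

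By group mean Wif1 was the most abundant of these transcripts per unit length, and by far so except in long bone EMB- cells. In the vertebral GFP+ fractions it made up 73.4% ± 2.31 of the summed FPKM of the 10 genes in EMB+ cells and 85.5% ± 1.15 in EMB- cells (SD, n = 4 each here and below). In the GFP- fractions the share was 75.2% ± 1.57 in EMB+ cells and 79.0% ± 1.89 in EMB- cells. In long bone its share was smaller, at 61.8% ± 3.00 in EMB+ cells and 41.5% ± 4.08 in EMB- cells. Among all genes Wif1 ranked 20 to 24 by FPKM in the 4 vertebral GFP+ EMB- libraries and no lower than 145 in any library. Sfrp5 came next in every group mean, with 7.15% ± 0.637 of the sum in vertebral GFP+ EMB- cells, against 39.7% ± 4.99 in the EMB- cells of long bone. In long bone EMB- replicates 1 and 4 Sfrp5 stood above Wif1, at 523 against 454 FPKM and 587 against 523 FPKM. Frzb followed in each group mean and then Dkk3. In long bone EMB+ cells Dkk3 averaged 26.9 FPKM and Sfrp4 26.2 FPKM, while as mean percent of the sum Sfrp4 held 3.09% and Dkk3 3.08%. Dkk2 and Sost held the least.

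**Figure D1:**
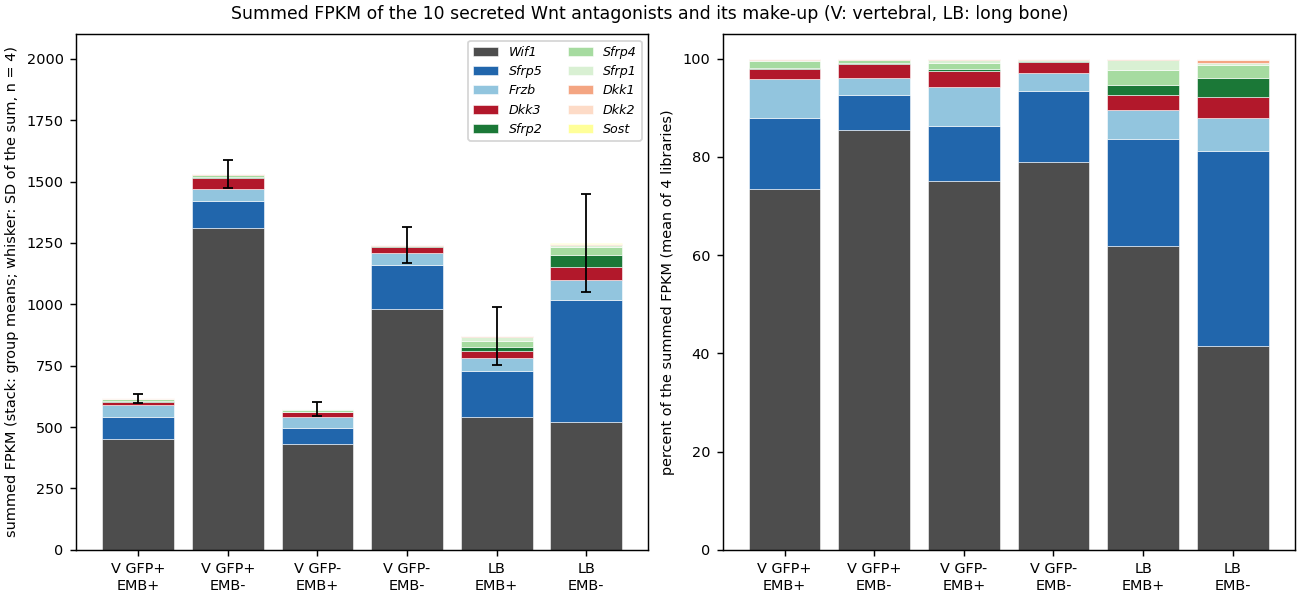
Left: stacked group means of the FPKM of the 10 antagonists, with the SD of their sum over 4 libraries. Right: each gene as a mean percent of that sum; Wif1 is the largest share in each group, from 85.5% in the vertebral GFP+ EMB- group down to 41.5% in the long bone EMB- group, where Sfrp5 reaches 39.7%.

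The 10 genes summed to 616 ± 19.3 FPKM in EMB+ and 1532 ± 56.4 FPKM in EMB- cells of the vertebral GFP+ fraction, and the libraries did not overlap. In the GFP- fraction the sum was 574 ± 29.2 FPKM in EMB+ against 1242 ± 73.2 FPKM in EMB- cells. Long bone EMB+ cells stood at 871 ± 117 FPKM and long bone EMB- cells at 1249 ± 199 FPKM. Without Wif1 the sum was 330 ± 28.3 FPKM in long bone EMB+ cells and 727 ± 96.3 FPKM in long bone EMB- cells, and 142 to 261 FPKM on average in the vertebral groups. As percent of all FPKM, the 10 genes held 0.142% ± 0.00375 in EMB+ and 0.391% ± 0.0166 in EMB- cells of the vertebral GFP+ fraction.

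**Figure D2:**
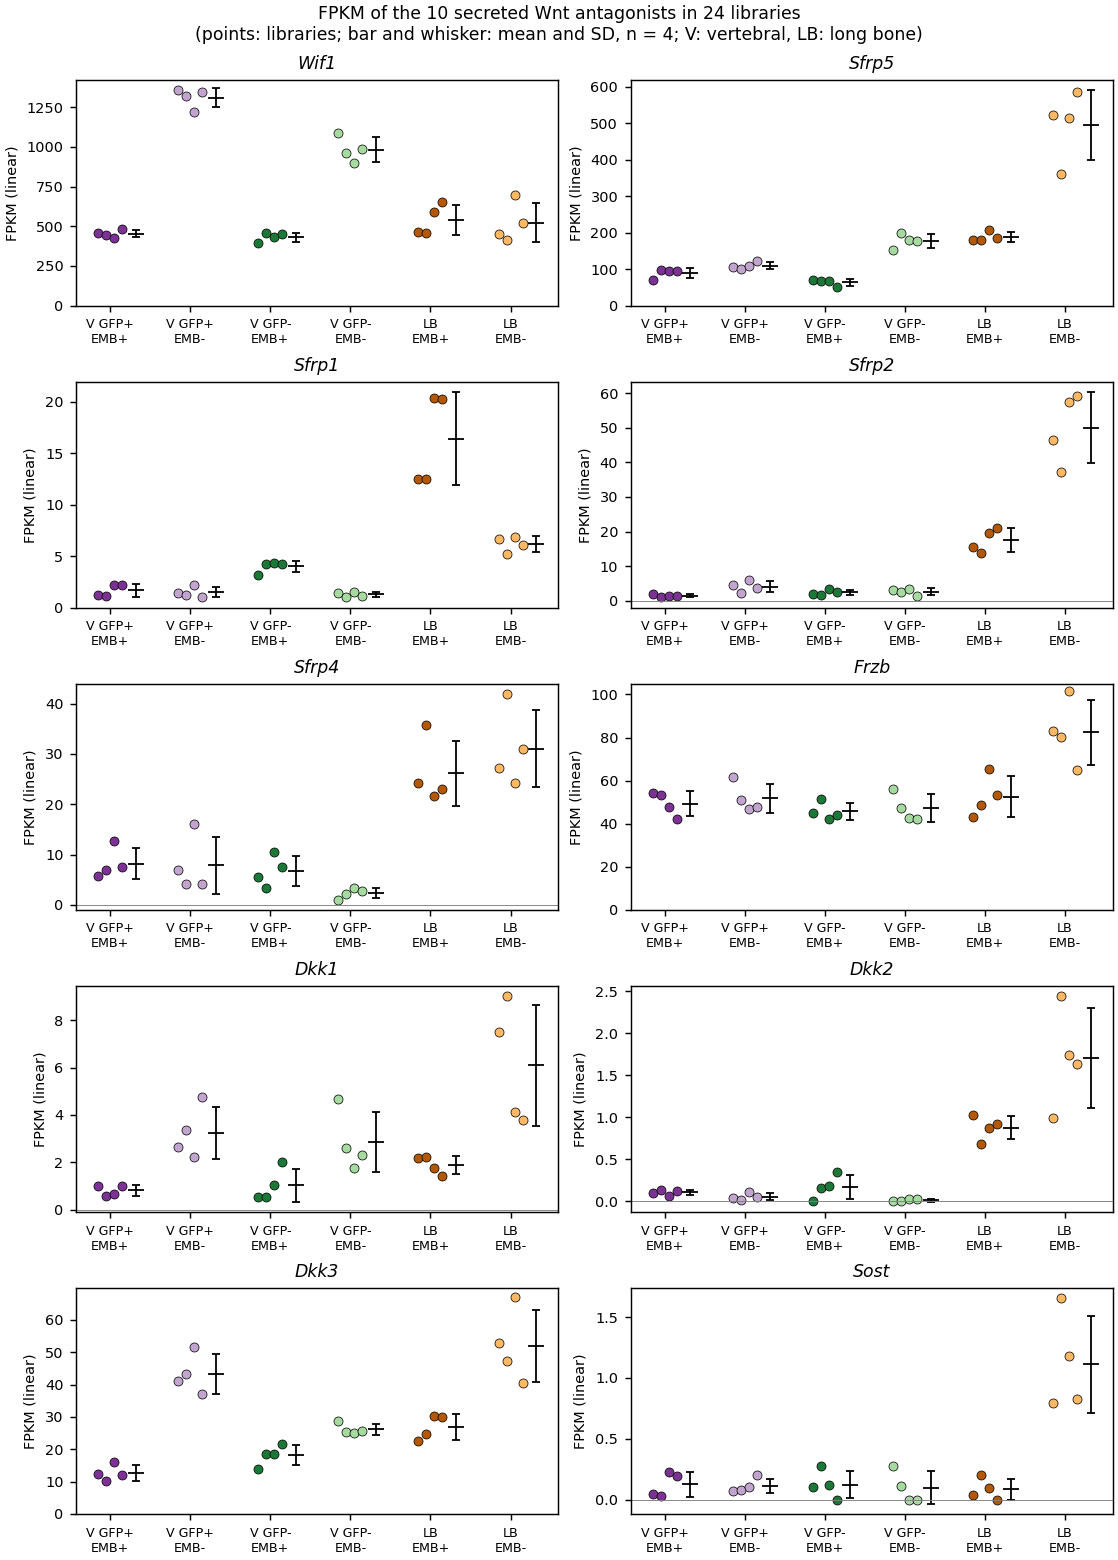
FPKM of each antagonist on linear axes in the 24 libraries (points), with group mean and SD beside them (n = 4). The Sfrp genes and Dkk2 are highest in long bone cells, Wif1 in vertebral EMB- cells, and Sost reaches 0.795 to 1.65 FPKM in long bone EMB- cells only.

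Levels were tested on log2(FPKM + 1) with limma in a single fit of the 6 groups, over the 11768 genes that reached 1 FPKM in 4 or more of the libraries, and a gene was called at an adjusted p under 0.05 (Benjamini-Hochberg over all tested genes). Differences are given on this scale, where the change of a low gene comes out too small. Of the 10 antagonists 9 passed the filter. Sost did not, with 2 libraries at or above 1 FPKM. Dkk2 passed through 4 libraries, all of long bone and most of them EMB-. Its differences that involve long bone cells, between sites or EMB states, therefore follow in part from the filter. The counts of called genes below include it. In bulk RNA, fewer cells that express a gene and less RNA per cell cannot be told apart.

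The antagonists called between EMB+ and EMB- cells were mostly lower in EMB+ cells, and Sfrp1 and Sfrp4 were the exceptions. In vertebral GFP+ cells, 4 of the 9 tested genes fell (Wif1, Dkk3, Dkk1 and Sfrp2) and 0 rose; over all tested genes 50.0% were called, 42.1% as higher and 7.85% as lower. In vertebral GFP- cells, Sfrp5, Wif1, Dkk1 and Dkk3 fell and Sfrp1 and Sfrp4 rose, where 52.3% of all tested genes were called, 41.6% as higher and 10.6% as lower. In long bone cells, Sfrp5, Sfrp2, Dkk1, Dkk3, Frzb and Dkk2 fell and Sfrp1 rose, against 33.5% of all tested genes called, 17.5% as higher and 16.0% as lower. The median difference of the 9 genes was -0.30 in vertebral GFP+, -0.04 in vertebral GFP- and -0.64 in long bone cells, and that of all tested genes was 0.32, 0.30 and 0.08 in the same comparisons. Scaling the libraries by median ratios took these shifts of all genes to 0.01, -0.03 and 0.00, and Wif1, for example, then stood at -1.92, -1.59 and -0.025. With that scaling 0, 1 and 1 of the 9 rose and 6, 5 and 6 fell. Groups without overlap were found for 50.6%, 51.5% and 24.7% of all tested genes in the same comparisons.

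**Figure D3:**
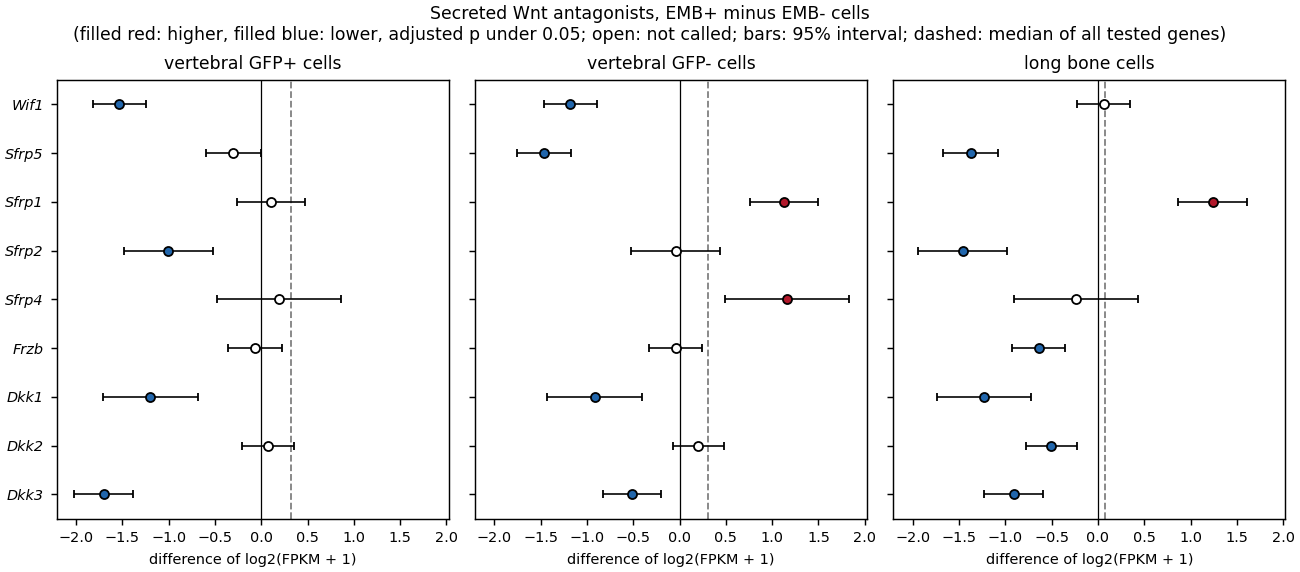
Differences of log2(FPKM + 1), EMB+ minus EMB- cells, for the 9 tested antagonists in vertebral GFP+, vertebral GFP- and long bone cells, with 95% intervals. Wif1 is lower in both vertebral comparisons (-1.53 and -1.18) and near 0 in long bone (0.06), while Sfrp1 is higher in vertebral GFP- and long bone cells (1.13 and 1.24).

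Among the genes whose products bind Wnt ligands, Wif1 had 458, 447, 424 and 481 FPKM in vertebral GFP+ EMB+ libraries, against 1357, 1319.8, 1219.9 and 1344 FPKM in vertebral GFP+ EMB- libraries. Every EMB+ library lay below every EMB- library, and the difference was -1.53 (SE 0.14, adjusted p = 2.9e-09). In vertebral GFP- cells Wif1 had 392, 455, 429.9 and 450.0 FPKM in EMB+ libraries, against 1086, 961, 895 and 986 FPKM in EMB- libraries. There too the groups did not overlap, with a difference of -1.18 (SE 0.14, adjusted p = 1.49e-07). Long bone EMB+ libraries had 461, 459.7, 589 and 651 FPKM and long bone EMB- libraries 454, 416, 695 and 523 FPKM, which overlap throughout. The long bone difference was 0.06 (95% interval -0.22 to 0.35, adjusted p = 0.773). That the EMB difference of Wif1 was more negative in vertebral GFP- than in long bone cells passed its own test (-1.24, SE 0.20, adjusted p = 4.07e-05).

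Sfrp5, which like the other Sfrp proteins binds Wnt ligands, was highest in long bone EMB- cells. Long bone EMB+ libraries had 180.3, 179.6, 208 and 184.7 FPKM, against 523, 361, 514 and 587 FPKM in long bone EMB- libraries, with no overlap and a difference of -1.37 (SE 0.14, adjusted p = 3.02e-08). Vertebral GFP- cells had 71.5, 68.0, 66.4 and 50.4 FPKM in their EMB+ libraries, against 153, 200.2, 181 and 178 FPKM in EMB- libraries. That difference was -1.47 (SE 0.14, adjusted p = 7.12e-09). Vertebral GFP+ EMB+ libraries had 69.8, 97.4, 94.5 and 95.1 FPKM and GFP+ EMB- libraries 104.8, 101, 109 and 123 FPKM. These do not overlap either, yet the difference of -0.30 (95% interval -0.60 to -0.01, adjusted p = 0.0834) was not called. After median-ratio scaling it was -0.69 (adjusted p = 0.000386) and after quantile normalization -0.66 (adjusted p = 0.000816), and both were called. The difference between the GFP+ and the GFP- EMB difference was called (1.17, SE 0.20, adjusted p = 0.000439).

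Sfrp1, a Wnt-binding antagonist, rose in EMB+ cells of long bone and of the vertebral GFP- fraction. It had 12.4, 12.5, 20.4 and 20.2 FPKM in long bone EMB+ libraries, against 6.67, 5.21, 6.91 and 6.05 FPKM in long bone EMB- libraries. All EMB+ libraries lay above all EMB- libraries (difference 1.24, SE 0.18, adjusted p = 5.38e-06). It averaged 4.00 ± 0.533 FPKM in EMB+ and 1.29 ± 0.199 FPKM in EMB- libraries of vertebral GFP- cells, a difference of 1.13 (SE 0.18, adjusted p = 1.27e-05). In vertebral GFP+ cells it averaged 1.69 ± 0.607 FPKM in EMB+ and 1.48 ± 0.483 FPKM in EMB- libraries, which overlap. That difference was 0.11 (95% interval -0.26 to 0.48, adjusted p = 0.632), and it was smaller than the one in GFP- cells by the test of the difference (-1.02, SE 0.25, adjusted p = 0.0143). With a pseudocount of 5 in place of 1 that test gave -0.47 and was not called (adjusted p = 0.093).

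Sfrp2 had 15.6, 13.7, 19.7 and 21.1 FPKM in long bone EMB+ libraries, against 46.5, 37.3, 57.4 and 59.1 FPKM in long bone EMB- libraries. The groups do not overlap and differed by -1.46 (SE 0.23, adjusted p = 2.16e-05). Vertebral levels were low: 1.43 ± 0.421 FPKM in GFP+ EMB+ cells against 4.03 ± 1.62 FPKM in GFP+ EMB- cells (difference -1.01, SE 0.23, adjusted p = 0.00107). Sfrp2 in vertebral GFP- cells averaged 2.41 ± 0.736 FPKM in EMB+ and 2.58 ± 1.00 FPKM in EMB- libraries, with overlap and a difference of -0.04 (adjusted p = 0.89). An annotated antisense gene, Gm26771, overlaps exons of Sfrp2, and the library kit does not mark strand, so their reads cannot be told apart; no other antagonist has an exon overlapped by another annotated gene.

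Sfrp4 spread widely between libraries. In vertebral GFP- cells it had 5.48, 3.41, 10.5 and 7.56 FPKM in EMB+ libraries, against 1.07, 2.27, 3.35 and 2.78 FPKM in EMB- libraries, which just do not overlap. It was higher there by 1.16 (SE 0.32, adjusted p = 0.00429), and under median-ratio scaling by 0.85 (adjusted p = 0.053), which is not called. In vertebral GFP+ cells it averaged 8.21 ± 3.04 FPKM in EMB+ and 7.86 ± 5.66 FPKM in EMB- libraries, and in long bone 26.2 ± 6.46 FPKM in EMB+ and 31.1 ± 7.69 FPKM in EMB- libraries; neither difference was called (0.19 and -0.24). Frzb, the antagonist with the flattest profile, ranged from 42.0 to 65.4 FPKM in the EMB+ libraries of all sites and from 42.3 to 102 FPKM in the EMB- libraries. It fell in long bone EMB+ cells, with 43.1, 48.7, 65.4 and 53.3 FPKM against 83.1, 80.1, 102 and 65.1 FPKM in long bone EMB- cells (-0.64, SE 0.14, adjusted p = 0.000836). The 2 ranges overlap by a single pair of libraries. In the vertebral comparisons its differences were -0.07 and -0.04, not called, but -0.45 (adjusted p = 0.0182) and -0.44 (adjusted p = 0.0165) after median-ratio scaling, where both were called lower.

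Of the antagonists that act at the coreceptors, Dkk1 was low and fell in EMB+ cells in all 3 comparisons. It had 0.993, 0.604, 0.664 and 1.01 FPKM in vertebral GFP+ EMB+ libraries, against 2.65, 3.36, 2.23 and 4.75 FPKM in vertebral GFP+ EMB- libraries (-1.20, SE 0.25, adjusted p = 0.000371). Long bone EMB+ libraries had 2.18, 2.25, 1.77 and 1.42 FPKM, against 7.49, 9.003, 4.13 and 3.80 FPKM in long bone EMB- libraries (-1.23, SE 0.25, adjusted p = 0.000374). In both comparisons the groups were apart. In the vertebral GFP- fraction, 0.556, 0.554, 1.03 and 2.03 FPKM in EMB+ libraries stood against 4.66, 2.63, 1.76 and 2.33 FPKM in EMB- libraries, with a difference of -0.92 (SE 0.25, adjusted p = 0.00356). The highest EMB+ library there lay above the lowest EMB- library.

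Dkk3 was the most abundant Dkk gene in every group and fell in EMB+ cells in all 3 comparisons. In vertebral GFP+ cells it had 12.3, 10.2, 16.1 and 12.1 FPKM in EMB+ libraries, against 41.2, 43.1, 51.7 and 37.2 FPKM in EMB- libraries (-1.70, SE 0.15, adjusted p = 2.52e-09). The vertebral GFP- fraction averaged 18.2 ± 3.17 FPKM in EMB+ and 26.1 ± 1.68 FPKM in EMB- libraries (-0.51, SE 0.15, adjusted p = 0.00705; -0.91 after median-ratio scaling). Long bone EMB+ cells averaged 26.9 ± 3.93 FPKM and EMB- cells 51.9 ± 11.2 FPKM (-0.91, SE 0.15, adjusted p = 4.09e-05). The groups did not overlap in any of the 3, and the fall was larger in GFP+ than in GFP- vertebral cells by the test of the difference (-1.19, SE 0.22, adjusted p = 0.000707).

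Dkk2 and Sost were near 0 outside long bone. Dkk2 had 1.03, 0.688, 0.876 and 0.920 FPKM in long bone EMB+ libraries and 0.993, 2.44, 1.74 and 1.64 FPKM in long bone EMB- libraries, which overlap. It was called lower (-0.50, SE 0.13, adjusted p = 0.00527), but not with a pseudocount of 0.1 (-0.83, adjusted p = 0.121) or in a fit of the 2 groups alone (adjusted p = 0.0822). In the 16 vertebral libraries it lay between 0 and 0.349 FPKM. Sost had 0.0420, 0.200, 0.0995 and 0 FPKM in long bone EMB+ libraries, against 0.795, 1.65, 1.18 and 0.828 FPKM in long bone EMB- libraries. All 4 long bone EMB- libraries lay above the other 20, of which the highest had 0.2799 FPKM. In a fit without the filter, over 17617 genes, the long bone difference of Sost was -0.95 (SE 0.11, adjusted p = 8.92e-07).

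Markers of other cell types moved with these differences, and their part in them was not tested. The counts of called markers stand beside 42.1%, 41.6% and 17.5% of all tested genes called higher. Called lower were 7.85%, 10.6% and 16.0% (vertebral GFP+, vertebral GFP- and long bone). All 5 tendon and ligament markers fell in EMB+ cells of both vertebral fractions and 3 of 5 in long bone; they summed to 34.5 to 37.7 FPKM in vertebral GFP+ EMB+ libraries against 233 to 295 FPKM in GFP+ EMB- libraries, and to 95.3 to 131 FPKM in long bone EMB+ against 272 to 456 FPKM in long bone EMB- libraries. Fibroblast and periosteum markers fell in 6, 6 and 4 of 6 (vertebral GFP+, vertebral GFP-, long bone), and hypertrophic chondrocyte markers rose in 4 of 4 in each. Of 4 markers of articular and superficial cartilage, 2, 2 and 1 fell and 0, 1 and 0 rose. They summed to 301 to 409 FPKM in GFP+ EMB+ against 1133 to 1342 FPKM in GFP+ EMB- libraries, and to 243 to 544 FPKM in GFP- EMB+ against 977 to 1067 FPKM in GFP- EMB- libraries. Osteoblast markers summed to 3578 to 4522 FPKM in vertebral GFP+ EMB+ against 6977 to 7508 FPKM in GFP+ EMB- libraries, where 3 of 7 rose and 1 fell. The 3 of 7 lie near the 42.1% of all tested genes called higher there. Both tested skeletal muscle markers fell in long bone EMB+ cells, with sums of 52.7 to 58.5 FPKM in EMB+ against 337 to 813 FPKM in EMB- libraries. Erythroid markers fell in EMB+ cells in 7 of 7 in vertebral GFP- cells, with sums of 121 to 518 FPKM in EMB+ against 7256 to 12334 FPKM in EMB- libraries. In long bone they also fell in 7 of 7, with 243 to 528 FPKM in EMB+ against 20123 to 42326 FPKM in EMB- libraries, and hemoglobin genes held 6.88% ± 1.74 of all FPKM in long bone EMB- cells. In vertebral GFP+ cells 0 of 7 erythroid markers were called, with sums of 197 to 548 FPKM in EMB+ and 264 to 977 FPKM in EMB- libraries. Leukocyte markers summed to 412.5 to 3084.5 FPKM in vertebral GFP- EMB+ and 131 to 539 FPKM in GFP- EMB- libraries, which overlap. Their sums also overlapped between EMB+ and EMB- libraries in vertebral GFP+ and in long bone cells. Beside Sost, 3 of the 4 tested osteocyte markers fell in long bone EMB+ cells, which summed to 119.9 to 234 FPKM, against 232 to 600.1 FPKM in EMB- cells. The sum rests mostly on Dmp1; Mepe, a matrix protein of osteocytes, had 5.89 to 7.69 FPKM in long bone EMB+ and 62.1 to 126 FPKM in long bone EMB- libraries, while Fgf23, an osteocyte hormone, was listed at 0 in all 4 long bone EMB- libraries.

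Within the vertebra, 1 of the 9 antagonists was called between GFP+ and GFP- cells in EMB+ cells and 3 in EMB- cells. In EMB+ cells it was Sfrp1, lower in GFP+ cells, against 2.10% of all tested genes, 0.391% as higher and 1.71% as lower; the groups were apart for 8.29%. Sfrp1 had 1.25, 1.09, 2.21 and 2.22 FPKM in GFP+ libraries and 3.20, 4.23, 4.33 and 4.25 FPKM in GFP- libraries, with no overlap (-0.91, SE 0.18, adjusted p = 0.00335). Dkk3 averaged 12.7 ± 2.48 FPKM in GFP+ EMB+ and 18.2 ± 3.17 FPKM in GFP- EMB+ cells, which overlap (-0.49, adjusted p = 0.126); with the replicate number as a block it was called (adjusted p = 0.0407). Leukocyte markers moved with this comparison: 4 of the 6 tested were lower in GFP+ cells, with sums of 21.7 to 209 FPKM in GFP+ EMB+ against 413 to 3085 FPKM in GFP- EMB+ libraries, and their part in it was not tested.

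In EMB- cells, Dkk3 and Sfrp4 were higher and Sfrp5 lower in GFP+ than in GFP- vertebral cells, 3 of 9 against 8.47% of all tested genes (2.25% higher, 6.22% lower; 16.8% with no overlap). Dkk3 had 41.2, 43.1, 51.7 and 37.2 FPKM in GFP+ libraries against 28.6, 25.2, 25.0 and 25.7 FPKM in GFP- libraries (0.70, SE 0.15, adjusted p = 0.00268). Sfrp5 averaged 109 ± 9.75 FPKM in GFP+ and 178 ± 19.5 FPKM in GFP- libraries (-0.69, SE 0.14, adjusted p = 0.0015). In both genes the groups did not overlap. Sfrp4 had 7.01, 4.22, 16.1 and 4.11 FPKM in GFP+ EMB- libraries against 1.07, 2.27, 3.35 and 2.78 FPKM in GFP- EMB- libraries (1.26, SE 0.32, adjusted p = 0.0118). That call rests on single libraries: without GFP+ EMB- replicate 3 the difference was 0.88 (adjusted p = 0.0793), and without GFP- EMB- replicate 1 it was 1.04 (adjusted p = 0.0617). It was also lost with a pseudocount of 5 (adjusted p = 0.0564) and in a fit of these groups alone (adjusted p = 0.0905). Wif1 was at 1310.2 ± 62.2 FPKM in GFP+ and 982 ± 78.9 FPKM in GFP- cells, without overlap. Its difference of 0.42 (SE 0.14, adjusted p = 0.0639) was not called, but was with the replicate number as a block (adjusted p = 5.4e-05). Erythroid markers, whose part was not tested, summed to 264 to 977 FPKM in GFP+ EMB- and 7256 to 12334 FPKM in GFP- EMB- libraries, and 7 of 7 were lower in GFP+ cells. Other lists were higher in GFP+ than in GFP- EMB- libraries, without overlap of their sums, and their part was not tested either. Tendon and ligament markers summed to 233 to 295 FPKM in GFP+ and 119.9 to 139 FPKM in GFP- libraries (2 of 5 called higher), and osteoblast markers to 6977 to 7508 FPKM in GFP+ and 3928 to 4780 FPKM in GFP- libraries (5 of 7). Osteocyte markers summed to 73.6 to 101 FPKM in GFP+ and 30.9 to 41.5 FPKM in GFP- libraries (1 of 4).

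Most antagonists had lower FPKM in vertebral than in long bone cells of the same EMB state, and Wif1 had higher FPKM in vertebral EMB- cells. In EMB+ cells, Sfrp1, Sfrp2, Sfrp4, Sfrp5, Dkk2 and Dkk3 were lower in vertebral GFP+ than in long bone cells and 0 of 9 were higher; of all tested genes 21.5% were called, 8.64% as higher and 12.9% as lower. The same 6 genes were lower in vertebral GFP- EMB+ than in long bone EMB+ cells, against 19.1% of all tested genes called, 8.48% as higher and 10.6% as lower. In EMB- cells, 7 of 9 were lower and Wif1 was higher in vertebral GFP+ cells (47.8% of all tested genes called, 7.40% higher and 40.4% lower), and 8 of 9 were lower and Wif1 higher in vertebral GFP- cells (48.2% called, 8.04% higher and 40.2% lower). All tested genes shifted by a median of -0.27 and -0.28 in those EMB- comparisons, and by -0.01 and 0.01 in EMB+ cells. After median-ratio scaling, which took the EMB- shifts to -0.02 and -0.05, 5 of 9 were lower in vertebral GFP+ EMB- and 8 of 9 in GFP- EMB- cells. Wif1 stayed higher in both. Groups without overlap were found for 28.1% and 24.8% of all tested genes in EMB+ cells (GFP+ and GFP- against long bone) and for 36.9% and 35.3% in EMB- cells. These comparisons share long bone libraries, and those with GFP+ cells set apart both the site and the GFP state. Dkk2, which passed the filter through long bone libraries only, is among the genes called lower in each.

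**Figure D4:**
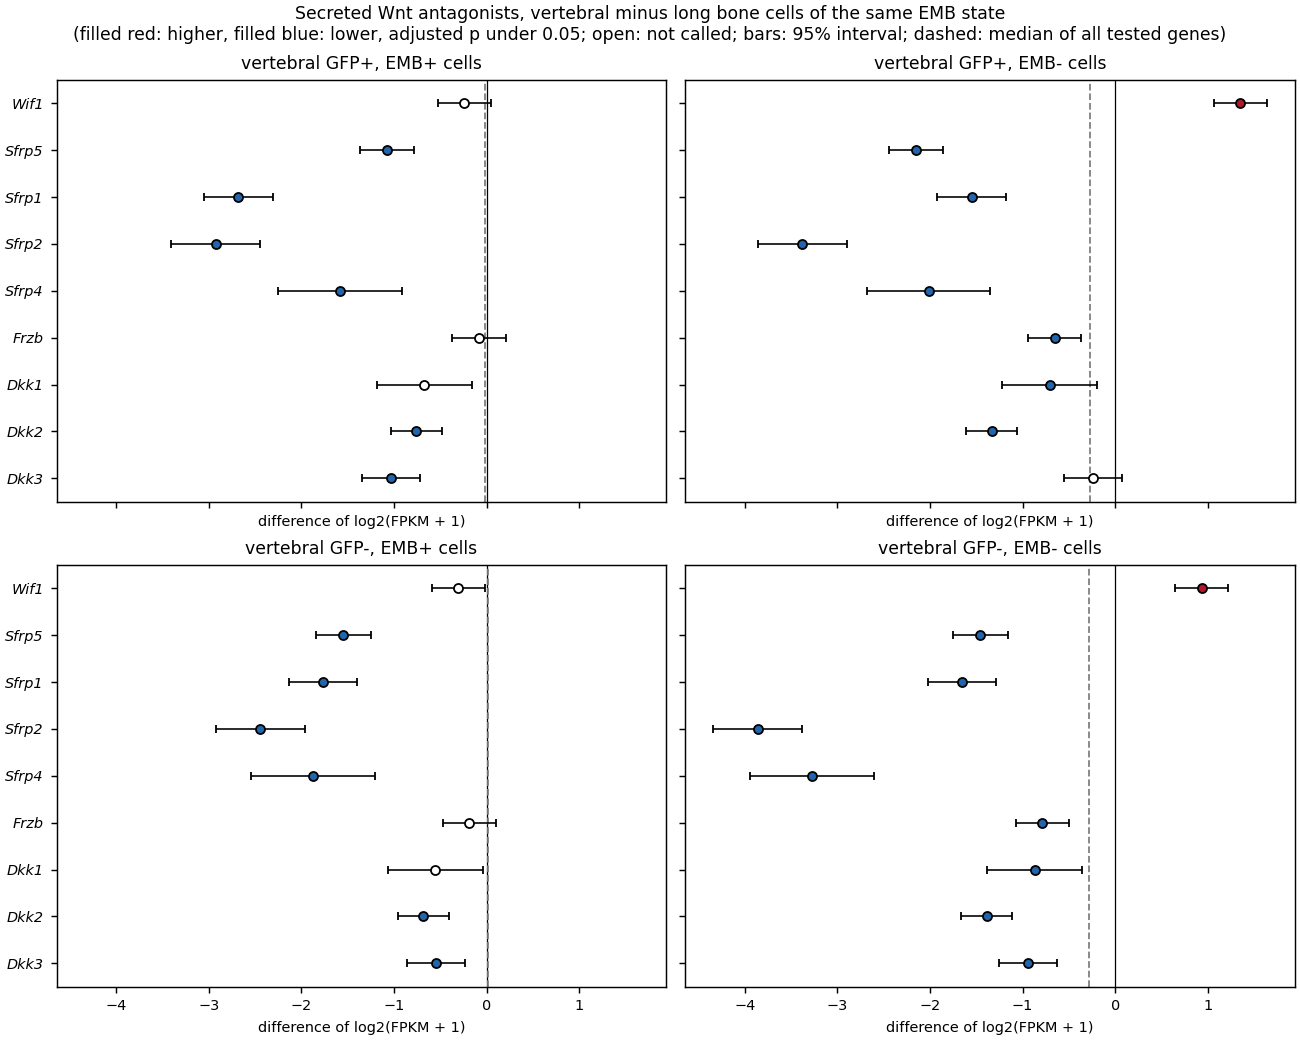
Differences of log2(FPKM + 1), vertebral minus long bone cells of the same EMB state, for the 9 tested antagonists with 95% intervals. Sfrp2 has the most negative differences in each panel (-2.45 to -3.86), and Wif1 is positive in EMB- cells (1.35 for GFP+ and 0.93 for GFP-).

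On the log2(FPKM + 1) scale Sfrp2 had the widest gap. As a ratio of means in EMB- cells Dkk2 had a wider one, at 0.0312 (GFP+) and 0.00839 (GFP-) of the long bone mean, against 0.08055 and 0.0514 for Sfrp2. In EMB+ cells Sfrp2 stood at 1.43 ± 0.421 FPKM in vertebral GFP+ and 2.41 ± 0.736 FPKM in vertebral GFP- cells. Its level in long bone EMB+ cells was 17.5 ± 3.48 FPKM (differences -2.93 and -2.45, adjusted p = 6.4e-10 and 1.68e-08). In EMB- cells it had 4.03 ± 1.62 FPKM in vertebral GFP+ and 2.58 ± 1.00 FPKM in vertebral GFP- cells, against 50.1 ± 10.2 FPKM in long bone cells (-3.38 and -3.86, adjusted p = 1e-11 and 1.69e-12). No vertebral library of the 16 reached 6 FPKM and no long bone library was below 13.7 FPKM. Sfrp1 averaged 1.69 ± 0.607 FPKM in vertebral GFP+ EMB+ cells against 16.4 ± 4.52 FPKM in long bone EMB+ cells, a difference of -2.68 (SE 0.18, adjusted p = 2.59e-11). The other 3 differences of Sfrp1 were -1.55 to -1.77, all without overlap.

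Sfrp4 was at 2.37 ± 0.969 FPKM in vertebral GFP- EMB- cells against 31.1 ± 7.69 FPKM in long bone EMB- cells (-3.28, SE 0.32, adjusted p = 1.37e-08), and its highest vertebral library of any group, at 16.1 FPKM, lay below its lowest long bone library, at 21.6 FPKM. Sfrp5 averaged 109 ± 9.75 FPKM in vertebral GFP+ EMB- and 178 ± 19.5 FPKM in vertebral GFP- EMB- cells against 496 ± 96.0 FPKM in long bone EMB- cells (-2.15 and -1.46, adjusted p = 5.34e-12 and 1.21e-08). In EMB+ cells it averaged 89.2 ± 13.0 FPKM in vertebral GFP+ and 64.1 ± 9.39 FPKM in vertebral GFP- cells against 179.6 to 208 FPKM in the long bone libraries (-1.08 and -1.55). That long bone EMB+ range overlaps the one of vertebral GFP- EMB- libraries, 153 to 200.2 FPKM.

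Wif1 had the opposite order in EMB- cells: 1310.2 ± 62.2 FPKM in vertebral GFP+ and 982 ± 78.9 FPKM in vertebral GFP- cells, against 522 ± 124 FPKM in long bone cells (1.35 and 0.93, SE 0.14, adjusted p = 1.24e-08 and 6.09e-06). The lowest vertebral EMB- library, at 895 FPKM, lay above the highest long bone EMB- library, at 695 FPKM. In EMB+ cells Wif1 averaged 453 ± 23.6 FPKM in vertebral GFP+ and 432 ± 28.5 FPKM in vertebral GFP- cells against 540.2 ± 95.7 FPKM in long bone cells, and neither difference was called (-0.24 and -0.31, adjusted p = 0.251 and 0.136).

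Dkk2 was lower in vertebral than in long bone cells in all 4 comparisons (-0.68 to -1.39), without overlap. Dkk3 was lower in vertebral EMB+ cells of both fractions (-1.03 and -0.54) and in vertebral GFP- EMB- cells (-0.94). In vertebral GFP+ EMB- cells it averaged 43.3 ± 6.13 FPKM against 51.9 ± 11.2 FPKM in long bone EMB- cells, which overlap (-0.24, adjusted p = 0.202). The call for Dkk3 in GFP- EMB+ cells was lost without vertebral GFP- EMB+ replicate 1 (-0.43, adjusted p = 0.0656, against -0.54 and 0.0115 with it). Dkk1 was lower in vertebral EMB- cells (-0.71 for GFP+ and -0.87 for GFP-, adjusted p = 0.0216 and 0.00563), with overlapping libraries. For GFP+ cells that call was lost when any of 4 libraries was left out (vertebral GFP+ EMB- replicates 1 and 3 and long bone EMB- replicates 1 and 2, adjusted p = 0.0579 to 0.101), and after median-ratio scaling (-0.47, adjusted p = 0.152) or quantile normalization (-0.34, adjusted p = 0.261). Frzb was lower in vertebral EMB- cells (-0.65 for GFP+ and -0.79 for GFP-, adjusted p = 0.000399 and 5.79e-05). After median-ratio scaling these were -0.35 (adjusted p = 0.0521) and -0.50 (adjusted p = 0.00705), and after quantile normalization -0.24 (adjusted p = 0.233) and -0.39 (adjusted p = 0.056).

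Markers of several cell types moved with the site, and their part was not tested. In EMB+ cells 8.64% and 8.48% of all tested genes were called higher (vertebral GFP+ and GFP-) and 12.9% and 10.6% lower. In EMB- cells 7.40% and 8.04% were called higher and 40.4% and 40.2% lower. Chondrocyte markers summed to 49930 to 59680 FPKM in the vertebral libraries against 27599 to 39961 FPKM in the long bone libraries; 7 of 7 were higher in both vertebral EMB+ fractions, and in EMB- cells 4 were higher and 1 lower for GFP+ and 3 higher and 1 lower for GFP-. Articular and superficial cartilage markers summed to 243 to 544 FPKM in vertebral EMB+ against 885 FPKM or more in long bone EMB+ libraries, and to 977 to 1342 FPKM in vertebral EMB- against 1232 to 3221 FPKM in long bone EMB- libraries. Of the 7 osteoblast markers, 4 were lower and 1 higher in vertebral GFP+ EMB+ than in long bone EMB+ cells, and 5 were lower in vertebral GFP+ EMB- than in long bone EMB- cells. They summed to 3578 to 4522 FPKM in vertebral GFP+ EMB+ libraries against 11993 to 26256 FPKM in long bone EMB+ libraries. All 4 tested osteocyte markers were lower in both vertebral EMB- groups than in long bone EMB- cells. Erythroid markers summed to 264 to 977 FPKM in vertebral GFP+ EMB- cells and to 20123 to 42326 FPKM in long bone EMB- cells. In EMB+ cells they summed to 197 to 548 FPKM in vertebral GFP+ and 243 to 528 FPKM in long bone libraries. Skeletal muscle markers summed to 31.1 to 41.0 FPKM in vertebral GFP+ EMB- and to 337 to 813 FPKM in long bone EMB- libraries. Leaving out long bone EMB- replicate 4, which has the highest summed FPKM of all libraries, changed no call of an antagonist.

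Whether the EMB differences differed between cell sources was tested as a difference of differences. Between the vertebral fractions (GFP+ minus GFP-), 3 of 9 antagonists were called, against 4.87% of all tested genes (3.20% higher, 1.67% lower): Dkk3 and Sfrp1, with more negative values in GFP+ cells, and Sfrp5, with a less negative value. Between vertebral GFP- and long bone cells 5 of 9 were called, against 29.8% of all tested genes (24.7% higher, 5.06% lower). Wif1 was more negative in vertebral GFP- cells (-1.24), and Sfrp2, Sfrp4, Dkk2 and Frzb were less negative or more positive there (1.42, 1.40, 0.70 and 0.60). The value of Dkk2 follows in part from the filter. All tested genes shifted by a median of 0.27 in this comparison, and relative to it the values of Sfrp4, Dkk2 and Frzb were 1.13, 0.43 and 0.33. Sfrp4 and Frzb were not called after median-ratio scaling (1.17, adjusted p = 0.0892, and 0.28, adjusted p = 0.364) or quantile normalization (1.14, adjusted p = 0.0861, and 0.16, adjusted p = 0.666), while Sfrp2 was (1.21, adjusted p = 0.00869). The call for Sfrp4 was also lost without vertebral GFP- EMB+ replicate 3, vertebral GFP- EMB- replicate 1 or long bone EMB- replicate 2 (1.18 to 1.25, adjusted p = 0.0513 to 0.0588). That for Frzb was lost without vertebral GFP- EMB+ replicate 2, vertebral GFP- EMB- replicate 4, long bone EMB+ replicate 1 or long bone EMB- replicate 3 (0.49 to 0.55, adjusted p = 0.0508 to 0.0598).

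The other Wnt pathway genes were read by role, as lists fixed with earlier results of these data known. Counts of genes called in EMB+ against EMB- cells stand beside 42.1%, 41.6% and 17.5% of all tested genes called higher and 7.85%, 10.6% and 16.0% called lower (vertebral GFP+, vertebral GFP- and long bone). Of 19 Wnt ligands 6 passed the filter, and 5 rose and 1 fell in EMB+ cells of each vertebral fraction, while 4 rose and 1 fell in long bone, with the same counts after median-ratio scaling. Wnt5b, a ligand of growth plate cartilage, averaged 59.1 FPKM in vertebral GFP+ EMB+ and 12.2 FPKM in GFP+ EMB- cells (2.18, adjusted p = 3e-13). Wnt11 rose by 3.68 and 4.81 in the vertebral GFP+ and GFP- comparisons and by 0.98 in long bone, and Wnt5a by 1.85, 2.24 and 1.31. Their median difference was 1.92, 2.16 and 1.00 in the 3 comparisons, against 0.32, 0.30 and 0.08 for all tested genes.

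Of 10 Frizzled receptor genes 9 were tested; 4 rose and 2 fell in vertebral GFP+ EMB+ cells, 4 rose and 1 fell in vertebral GFP- EMB+ cells, and 2 rose and 2 fell in long bone EMB+ cells, against 1 up in each and 2, 1 and 2 down after median-ratio scaling. The 4 of 9 that rose in each vertebral fraction lie near the 42.1% and 41.6% of all tested genes. Fzd8 averaged 10.8 FPKM in vertebral GFP+ EMB+ and 41.6 FPKM in GFP+ EMB- cells (-1.84, adjusted p = 1.1e-10), and was higher in long bone EMB+ than in EMB- cells (0.42, adjusted p = 0.022), though not after median-ratio scaling (0.33, adjusted p = 0.062). Of the 5 receptors of Dkk proteins and sclerostin, 4 were tested, and 1 rose and 1 fell in vertebral GFP+ EMB+ cells (0 and 1 after median-ratio scaling). Lrp6 averaged 9.51 FPKM in vertebral GFP+ EMB+ and 7.20 FPKM in GFP+ EMB- cells (0.36, adjusted p = 0.045; 0.01 after median-ratio scaling), and Lrp5 0.9365 and 1.99 FPKM in the same order (-0.61, adjusted p = 0.0045). In long bone 0 of 4 were called.

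R-spondins, secreted enhancers of the pathway, and their Lgr receptors gave 5 tested genes of 7, of which 3 rose and 2 fell in EMB+ cells of each vertebral fraction, and 1 rose and 1 fell in long bone; after median-ratio scaling 2, 2 and 1 rose and 2 fell in each. Rspo3 averaged 13.95 FPKM in vertebral GFP+ EMB+ and 2.91 FPKM in GFP+ EMB- cells (1.93, adjusted p = 8e-10). Of 8 target genes of canonical signalling 5 were tested, and 3, 5 and 2 rose in EMB+ cells (42.1%, 41.6% and 17.5% of all tested genes in vertebral GFP+, vertebral GFP- and long bone cells) and 0 fell, against 3, 4 and 1 up and 0 down after median-ratio scaling. Lef1, a nuclear partner of beta-catenin, averaged 13.7 FPKM in vertebral GFP+ EMB+ and 3.91 FPKM in GFP+ EMB- cells (1.61, adjusted p = 4.3e-08), but 20.0 FPKM in long bone EMB+ and 18.5 FPKM in long bone EMB- cells (0.12, adjusted p = 0.62). Of 8 other extracellular antagonists 4 were tested, of which only Notum is described here. It was picked for its small adjusted p and does not stand for the list, and 42.1% of all tested genes were called higher in vertebral GFP+ EMB+ cells. Notum, a secreted enzyme that strips the lipid from Wnt proteins, was at 176.2 FPKM in vertebral GFP+ EMB+ and 81.7 FPKM in GFP+ EMB- cells (1.10, adjusted p = 9.8e-07), and at 38.5 FPKM in long bone EMB+ cells. It was higher in vertebral than in long bone cells in all 4 comparisons (1.39 to 2.17).

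For each tested antagonist the genes with the most similar profile were listed by Pearson correlation of log2(FPKM + 1) over the 24 libraries. These libraries come from 6 groups, so the values mostly reflect shared differences between groups, and they are a description only. Wif1 was closest to Fam131c, Bgn and Clu (0.948, 0.947 and 0.946); Bgn encodes the matrix proteoglycan biglycan and averaged 1214 FPKM in vertebral GFP+ EMB+ and 2295 FPKM in vertebral GFP+ EMB- cells. Sfrp1 was closest to Dlk1, Hs6st2 and Sox11 (0.953 to 0.936), and Dlk1, an imprinted gene expressed in many progenitor cells, averaged 1197 FPKM in long bone EMB+ and 711 FPKM in long bone EMB- cells. Sfrp2 was closest to Ncald, Tbx4 and Pygm (0.956 to 0.947), and Tbx4, a transcription factor gene of the hindlimb, had 5.65 to 12.9 FPKM in long bone and at most 0.641 FPKM in vertebral libraries. Dkk3 was closest to Postn, Col14a1 and Fndc1 (0.953 to 0.944). Dkk1 was closest to Cdh13, Tmem140 and Fbln2 (0.917 to 0.900), and Dkk2 to Chst2, Adam19 and Cd248 (0.953 to 0.932). Sfrp5 was closest to Arc, Pdcd1 and Smox (0.924 to 0.914), Sfrp4 to Fam20a, Fam65c and Cpz (0.929 to 0.915) and Frzb to Angpt1, Fstl1 and Prlr (0.871 to 0.854). No antagonist was among the 3 closest genes of another.

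The order of the 6 groups by mean differed between genes. Sfrp2, Sfrp4, Sfrp5, Frzb, Dkk1, Dkk2, Dkk3 and Sost had their highest mean in long bone EMB- cells, Sfrp1 in long bone EMB+ cells and Wif1 in vertebral GFP+ EMB- cells. Sfrp1 and Sfrp5 separated neighbouring groups at 3 of the 5 steps of that order, and Wif1, Sfrp2, Sfrp4 and Dkk3 at 2 of 5. In Wif1 the steps between vertebral GFP+ EMB-, vertebral GFP- EMB- and long bone EMB+ cells had no overlap, and at the later steps, through long bone EMB-, vertebral GFP+ EMB+ and vertebral GFP- EMB+ cells, neighbouring groups overlapped. Dkk1 and Frzb overlapped at every step. The ratio of the highest to the lowest group mean was 35.0 for Sfrp2, 13.1 for Sfrp4, 12.7 for Sfrp1, 7.74 for Sfrp5, 7.47 for Dkk1, 4.09 for Dkk3, 3.03 for Wif1 and 1.81 for Frzb. For Dkk2 and Sost, whose lowest means were 0.0143 and 0.0853 FPKM, it was 119.2 and 13.06.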

How the data were processed

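The deposited table gives FPKM per gene and library, per the file headers, with no counts; RNA had been made into libraries with SMART-Seq v4 and Nextera XT, per the labels' protocols, a kit that does not mark strand. Per the submitters' processing notes, the tools were Cufflinks 2.1.1, STAR 2.5.2 and bcl2fastq 2.19, with the build GRCm38. Of 22053 entries, 46 repeated IDs, 56 repeated symbols and 3 genes with failed estimates were left out, and 21948 were used. From these values, log2(FPKM + 1) was fitted with limma 3.58.1 in R 4.3.3 (trended and robust empirical Bayes, 18 residual degrees of freedom) over 11768 genes in a single model of the 6 groups, with Benjamini-Hochberg adjustment per comparison and a threshold of 0.05; the fit was checked on simulated data. Other pathway genes were named from the 3 of each list with the smallest adjusted p in the EMB comparisons. Similar genes were named as the 3 with the highest correlation. The members, lists and rules were chosen with earlier results of these data known. Alternatives were pseudocounts of 0.1 and 5, no filter or a stricter filter, median-ratio and quantile scaling, fits of the compared groups alone, a replicate block and each library left out. A fit without the vertebral GFP- EMB+ libraries was added after the data were seen. Same-numbered libraries deviated together (every correlation over 0.1) between vertebral GFP+ and GFP- libraries, of the same EMB state (0.13 to 0.337) or not (0.104 to 0.248). They also did so between EMB+ and EMB- in vertebral GFP- cells. Between EMB+ and EMB- in GFP+ cells the lowest of the correlations (0.097 to 0.278) fell just short. With long bone EMB- cells the check was not met. The labels do not tie libraries to animals, and p-values here cover only library-to-library spread, which may be technical.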

Additional observations from a re-analysis of the deposited data

Results flagged for a closer look

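In 2 of the 60 sets of 4 libraries tested (each gene in each group) the lowest library stood apart from the other 3, by more than Dixon's critical share of the whole range; chance alone gives about 1 in 20. Sfrp1 was at 3.20 FPKM in vertebral GFP- EMB+ replicate 1, against 4.23 to 4.33 FPKM in the other 3 libraries. Sfrp5 was at 69.8 FPKM in vertebral GFP+ EMB+ replicate 1, against 94.5 to 97.4 FPKM in the other 3. Differences of the EMB response between cell sources were called for 8 genes. Between the vertebral GFP+ and GFP- fractions these were -1.19 for Dkk3, -1.02 for Sfrp1 and 1.17 for Sfrp5, against 4.87% of all tested genes called. With a pseudocount of 5 the call for Sfrp1 was lost. Between vertebral GFP- and long bone cells they were -1.24 for Wif1, 1.42 for Sfrp2, 1.40 for Sfrp4, 0.70 for Dkk2 and 0.60 for Frzb. There 29.8% of all tested genes were called, and all tested genes shifted by a median of 0.27. Sfrp4 and Frzb were not called after median-ratio scaling, and the value of Dkk2 follows in part from the filter.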

How the results depend on the processing

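Of 99 differences of single antagonists 58 were called, and 48 of these kept their call under every alternative run. The 41 others include 12 that were called under some alternative. Among them was Sfrp5 between vertebral GFP+ EMB+ and EMB- cells, at -0.69 under median-ratio scaling and -0.66 under quantile normalization. A fit of these groups alone (adjusted p = 0.0291) and the replicate block (adjusted p = 0.0068) also called it. In that block the library numbers fell just short of the check for pairing. With the replicate block, antagonists called between GFP+ and GFP- EMB+ cells were 2 in place of 1 (Dkk3 joining Sfrp1), and between the EMB differences of the vertebral fractions 5 in place of 3 (Sfrp2, adjusted p = 0.0179, and Wif1, adjusted p = 0.00516). Leaving out single libraries gave 1 to 2 calls between GFP+ and GFP- EMB+ cells. It gave 2 without vertebral GFP+ EMB+ replicate 1 or 3 or GFP- EMB+ replicate 1. Between the EMB differences of vertebral GFP- and long bone cells, 3 were called in place of 5 under median-ratio scaling and 3 under quantile normalization. No replicate block could be used with long bone EMB+ libraries, whose titles all carry the number 1. Direction turned only for differences that were not called. These were, under median-ratio scaling and quantile normalization, Sfrp1 (-0.13 and -0.075) and Sfrp4 (-0.15 and -0.12) between vertebral GFP+ EMB+ and EMB- cells, and Dkk3 between vertebral GFP+ and long bone EMB- cells (0.062 and 0.16). Median-ratio scaling alone turned Wif1 between long bone EMB+ and EMB- cells (-0.025). Quantile normalization alone turned Dkk2 between GFP+ and GFP- EMB+ cells (0.033) and Frzb between the vertebral EMB differences (0.0043), and a pseudocount of 0.1 turned Sfrp1 between the EMB differences of vertebral GFP- and long bone cells (0.22). With single libraries left out, differences between vertebral GFP+ EMB+ and EMB- cells ranged from -0.013 to 0.57 for Sfrp4 and -0.11 to 0.017 for Frzb. Between vertebral GFP- EMB+ and EMB- cells they ranged from -0.26 to 0.078 for Sfrp2 and -0.099 to 0.046 for Frzb, and between long bone EMB+ and EMB- cells from -0.038 to 0.21 for Wif1. Between GFP+ and GFP- cells they ranged from -0.23 to 0.089 for Dkk1 in EMB+ and -0.020 to 0.18 for Sfrp1 in EMB- cells, and between vertebral GFP+ and long bone EMB+ cells from -0.17 to 0.026 for Frzb. The difference of EMB differences ranged from -0.11 to 0.058 for Frzb (vertebral GFP+ minus GFP-), and from -0.22 to 0.00091 for Sfrp1 and -0.18 to 0.054 for Sfrp5 (vertebral GFP- minus long bone). Among all tested genes, 84.3% of calls were higher in vertebral GFP+ EMB+ than EMB- cells, 46.9% after median-ratio scaling, and 79.7% and 43.7% in GFP- cells. The causes were not tested. Since depth is unknown, levels under 1 FPKM, as in Dkk2 and Sost, carry an error that the file does not give.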
